A study of Rattus norvegicus with 144 samples.

Results

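The comparison described here is that of male F344/N rats given 1500 mg/kg of acetaminophen by gavage with rats given 150 mg/kg, in blood taken 3 h later. It rests on 24 of the 144 arrays of the series, 2 for each of 12 rats, with 6 rats at each dose. Arrays were chosen by their 3 h label, and the rat number on each label was matched, ignoring zeros at its ends, to a deposited key that gives the dose. All rats were 10 to 12 weeks old, the drug was suspended in ethyl cellulose, and each dose was split over 2 administrations. RNA of each rat's blood was hybridised on 2 arrays, with Cy3 and Cy5 exchanged, against 1 pool of equal parts of RNA of the 6 vehicle rats of the same time. Both dose groups share that pool, so it drops out of their difference. The other groups used for context are the vehicle and 2000 mg/kg rats at 3 h and the 1500 and 150 mg/kg rats at 6 and 24 h, again with 6 rats each.

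Acetaminophen is cleared by glucuronidation and sulfation, and a part is oxidised by cytochrome P450 enzymes to a reactive quinone imine that glutathione traps. When glutathione runs out the quinone imine binds protein in hepatocytes, and the injured liver releases signals that reach circulating leukocytes. Whole blood RNA comes from lymphocytes, monocytes, granulocytes, platelets and immature red cells. The comparison sets a dose in the toxic range against one below it, early after dosing.

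Values are log2 ratios of a rat over the pool, averaged over its 2 arrays, and a difference is the mean of 6 rats at 1500 mg/kg minus the mean of 6 rats at 150 mg/kg, with its standard error (SE). Neither the log base nor the sign convention of the ratios is recorded in the labels or the table. They were taken as log10 of Cy5 over Cy3, which is likely from the number format, and every "lower", "higher" and size below rests on that reading. A ratio carries no level, so the blood label could not be checked on the level of blood genes, and levels are not compared between genes. Of 14678 features tested, 8354 were named genes. Features are called at a Benjamini-Hochberg adjusted p under 0.05 from limma.

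The 2 arrays of a rat were turned the same way. From each, the feature means over all arrays of the series in its dye orientation were subtracted. What remained of the 2 arrays correlated across features between -0.29 and 0.48 (median 0.14). The correlation was above 0 in 5 of 6 rats at 1500 mg/kg and in 4 of 6 at 150 mg/kg. It was lowest in rat 0460 of the 150 mg/kg group, which also stood apart from its group in the direction of the difference. Without that rat 12 features were called in place of 481. For this reason the leading genes are given with and without it, and the gene lists by how many members pass in each case. Of the 12 arrays of each group, 3 at 1500 and 1 at 150 mg/kg held no value for 500 features that the other arrays hold, and these features were not used.

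At 3 h, far more transcripts were lower at 1500 than at 150 mg/kg than were higher. Of the 14678 features 481 (3.28%) were called, 439 of them lower at 1500 than at 150 mg/kg (2.99% of all) and 42 higher (0.286%). The split differed between dye orientations: on the arrays with the rat in Cy3 402 were lower and 197 higher, and on those with the rat in Cy5 211 were lower and 1 higher. Named genes made up 330 of the falls and 22 of the rises. The falls were also larger: 314 were at least 1.5-fold and 69 at least 2-fold, while 9 rises reached 1.5-fold. The median difference was -0.73 over the called falls and 0.39 over the called rises, against 0.02 over all features tested. In 315 features (2.15%) all rats with a value at 1500 mg/kg lay below all with a value at 150 mg/kg, and in 33 (0.225%) all lay above. A feature had a value in at least 4 rats of each group. Of the called falls 197, and of the called rises 12, were of this kind. Without rat 0460 the median over the called falls was -0.61, and 12 features remained past the threshold. All 481 kept their sign, which says little because the remaining rats had also served to call them.

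**Figure D1:**
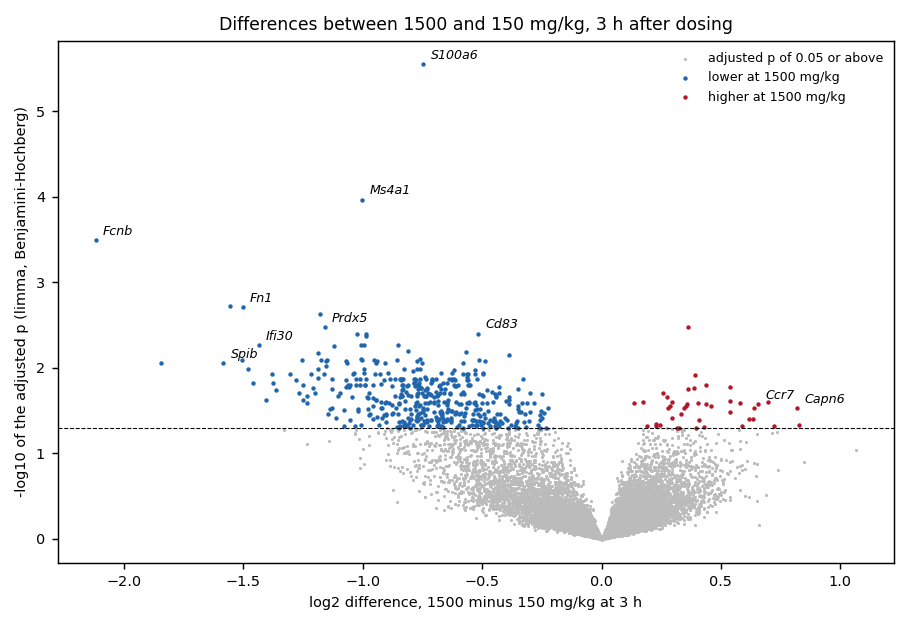
Each point is 1 of 14678 features, with the log2 difference of 1500 minus 150 mg/kg at 3 h on the x axis and -log10 of the limma adjusted p on the y axis; the dashed line is the threshold of 0.05. Of the 481 points above the line, 439 lie left of 0 and 42 right of it, with Fcnb farthest left at -2.12 and S100a6 highest.

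The largest fall among named genes was that of Fcnb, ficolin B, a lectin of granulocytes and monocytes that recognises microbial sugars and starts the lectin pathway of complement. Its log2 ratio lay between -2.61 and -1.19 (median -2.11) in the 6 rats at 1500 mg/kg and between -0.91 and 1.15 (median -0.19) in the 6 at 150 mg/kg. Every rat at 1500 mg/kg lay below every rat at 150 mg/kg, and the difference of -2.12 ± 0.35 (SE) is a 4.34-fold fall (adjusted p = 0.00032). Without rat 0460 it was -1.90 (adjusted p = 0.00599), still past the threshold. As these are bulk blood samples, fewer cells of a type and less RNA per cell cannot be told apart for this gene or for any below.

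Ifi30, a lysosomal thiol reductase that opens disulfide bonds of antigens for presentation, lay between -1.89 and -1.05 (median -1.62) at 1500 mg/kg and between -0.52 and 0.37 (median -0.16) at 150 mg/kg. Its difference of -1.44 ± 0.29 (adjusted p = 0.00547) did not depend on rat 0460, which was the lowest rat of its group for this gene, and it was -1.51 without that rat (adjusted p = 0.0174). Fn1, which encodes the matrix glycoprotein fibronectin and is transcribed by monocytes, lay between -2.31 and -0.76 (median -1.62) at 1500 mg/kg and between -0.57 and 0.65 (median -0.29) at 150 mg/kg, a difference of -1.50 ± 0.27 (adjusted p = 0.00195) and of -1.35 without rat 0460 (adjusted p = 0.0208). For both genes the groups did not overlap. Lyz2, the lysozyme of phagocytes, lay between -2.19 and -0.51 (median -1.47) at 1500 mg/kg and between -0.84 and 1.02 (median -0.26) at 150 mg/kg. The groups overlapped for Lyz2, and its fall of -1.46 ± 0.36 (adjusted p = 0.0152) was -1.25 without rat 0460 (adjusted p = 0.115).

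Transcripts of lymphocytes and of antigen presentation were also among the 12 largest falls. Spib, a B cell transcription factor of the ETS family, lay between -1.89 and -1.22 (median -1.38) at 1500 mg/kg and between -0.37 and 0.98 (median -0.04) at 150 mg/kg, and its fall was -1.58 ± 0.35 (adjusted p = 0.00884). RT1-Da, the alpha chain of a class II molecule of the rat major histocompatibility complex (MHC), lay between -1.73 and -0.92 (median -1.25) at 1500 mg/kg and between -0.55 and 0.99 (median 0.04) at 150 mg/kg, a fall of -1.38 ± 0.33 (adjusted p = 0.0149). In both genes the highest rat at 1500 mg/kg lay below the lowest rat at 150 mg/kg, while rat 0460 was the highest of its group. Ltb, the lymphotoxin beta chain that lymphocytes use to organise lymphoid tissue, lay between -1.97 and -0.70 (median -1.29) at 1500 mg/kg and between -1.26 and 1.11 (median 0.10) at 150 mg/kg, and its fall was -1.36 ± 0.34 (adjusted p = 0.018), with groups that overlapped. Without rat 0460 the differences of these 3 genes were -1.41, -1.20 and -1.15, with adjusted p of 0.0823, 0.113 and 0.127.

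The other 5 of the 12 have varied roles. Coro1a, the actin-binding coronin of leukocytes, lay between -1.87 and -0.69 (median -1.52) at 1500 mg/kg and between -0.74 and 1.17 (median -0.03) at 150 mg/kg, a difference of -1.51 ± 0.32. Hspa4, a chaperone of the Hsp110 family, lay between -2.23 and -0.65 (median -1.38) at 1500 mg/kg and between -0.27 and 0.84 (median -0.10) at 150 mg/kg, a difference of -1.48 ± 0.33. Of this pair Hspa4 separated the groups and Coro1a did not. For Hspa4 the vehicle rats at 3 h had a mean of -0.78, against 0.11 at 150 mg/kg and -1.38 at 1500 mg/kg. They lay between -1.40 and 0.15 and overlapped the rats at 1500 mg/kg. Dusp22, a dual specificity phosphatase, differed by -1.41 ± 0.37, with rats between -2.38 and -0.87 (median -1.38) at 1500 mg/kg and between -0.67 and 0.46 (median -0.10) at 150 mg/kg. Acp5, the tartrate-resistant acid phosphatase of macrophages and osteoclasts, lay between -1.76 and -0.86 (median -1.26) at 1500 mg/kg and between -0.58 and 0.74 (median -0.09) at 150 mg/kg, and differed by -1.25 ± 0.33. Bin1, which bends membranes in endocytosis, lay between -1.74 and -0.93 (median -1.38) at 1500 mg/kg and between -0.63 and 0.70 (median -0.15) at 150 mg/kg, and differed by -1.23 ± 0.32. The adjusted p of these 5 genes were 0.00806, 0.0104, 0.0239, 0.0239 and 0.0215 in the order given, and 0.0823, 0.0823, 0.12, 0.145 and 0.135 without rat 0460.

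Across the 12 largest falls the fold ranged from 2.35 to 4.34. In 9 of the 12 the groups did not overlap, as in 197 of the 439 called falls and 2.15% of all features. The 12 were picked on this same difference, which favours separate groups. Without rat 0460 the differences ranged from -1.90 to -1.07, and 3 of the 12 (Fcnb, Ifi30 and Fn1) passed the threshold. Group means of the 12 genes at 0, 150, 1500 and 2000 mg/kg lay between -0.78 and -0.01, between -0.14 and 0.13, between -2.04 and -1.29 and between -2.16 and -1.26.

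**Figure D2:**
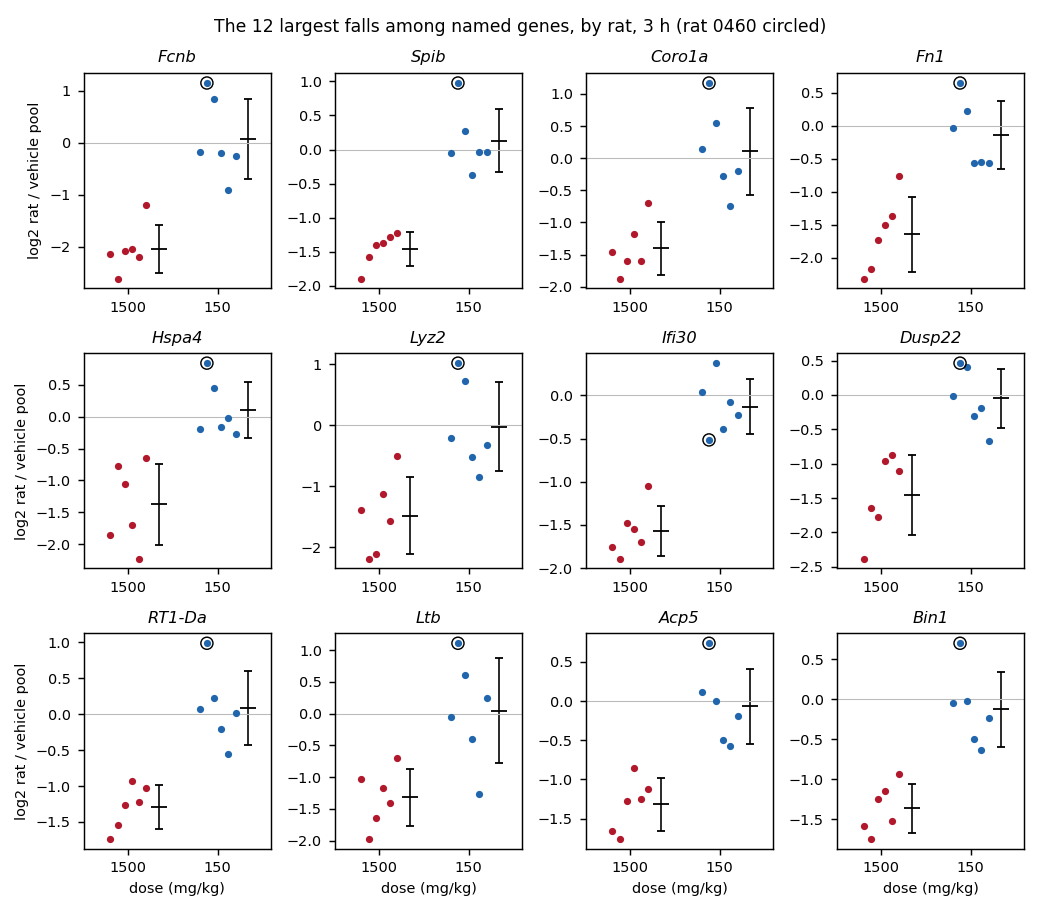
Each panel is 1 of the 12 named genes with the largest falls, with the log2 ratio of each rat over the vehicle pool on the y axis and dose on the x axis; points are the 6 rats of a dose, bars the mean and SD, and the circle marks rat 0460. All 6 rats at 1500 mg/kg lie below the mean at 150 mg/kg in each of the 12 panels, which picking genes on this difference favours. Rat 0460 is the highest of its group in all but the Ifi30 panel.

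The promoters of these 12 genes were read from RefSeq (build GRCr8), in which 11 have an entry. The 250 bases before the annotated start were searched on both strands for 6 short motifs spelled out here: AGGAAGT (the core of ETS and PU.1 sites), TGACTCA (AP-1), TGACGTCA (CRE), TTGCGCAA (C/EBP), GGGCGG (GC box) and ATTTGCAT (octamer). PU.1 is an ETS factor of myeloid and B cells. AGGAAGT or its other strand, ACTTCCT, stood in 6.99% of all 27457 promoters, in 537 of the 6894 tested named genes that have an entry (7.79%), in 40 of 283 called falls (14.1%) and in 4 of 19 called rises (21.1%). The other motifs stood in 2.83% (AP-1), 2.47% (CRE), 1.06% (C/EBP), 53.4% (GC box) and 1.41% (octamer) of the 283 falls, against 3.42%, 2.68%, 0.261%, 55.9% and 1.35% of the 6894 tested genes. None of the 6 motifs contains another, and a match is a description of letters, not a binding site. Of the 11 largest falls with an entry, 4 held the ETS core, and these are shown 5′ to 3′ on the gene's strand with the match in capitals: Fcnb at chr3:31800189-31800438, minus strand, Hspa4 at chr10:37949836-37950085, minus strand, Lyz2 at chr7:54798012-54798261, minus strand and Acp5 at chr8:28945931-28946180, minus strand. The first capital lies 86, 182, 100 and 11 bases before the start.
Fcnb: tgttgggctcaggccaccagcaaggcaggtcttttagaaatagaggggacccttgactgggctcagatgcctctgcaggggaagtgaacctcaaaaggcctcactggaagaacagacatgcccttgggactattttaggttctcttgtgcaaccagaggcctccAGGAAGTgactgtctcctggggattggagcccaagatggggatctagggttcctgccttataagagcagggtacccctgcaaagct
Hspa4: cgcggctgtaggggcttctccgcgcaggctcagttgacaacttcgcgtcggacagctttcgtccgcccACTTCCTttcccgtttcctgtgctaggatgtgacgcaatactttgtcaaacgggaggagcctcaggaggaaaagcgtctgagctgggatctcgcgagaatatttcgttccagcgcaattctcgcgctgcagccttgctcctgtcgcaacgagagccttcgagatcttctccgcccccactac
Lyz2: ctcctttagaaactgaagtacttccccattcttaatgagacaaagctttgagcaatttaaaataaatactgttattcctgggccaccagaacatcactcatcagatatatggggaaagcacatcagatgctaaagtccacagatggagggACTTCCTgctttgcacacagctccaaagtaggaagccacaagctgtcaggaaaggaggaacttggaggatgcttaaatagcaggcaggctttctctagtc
Acp5: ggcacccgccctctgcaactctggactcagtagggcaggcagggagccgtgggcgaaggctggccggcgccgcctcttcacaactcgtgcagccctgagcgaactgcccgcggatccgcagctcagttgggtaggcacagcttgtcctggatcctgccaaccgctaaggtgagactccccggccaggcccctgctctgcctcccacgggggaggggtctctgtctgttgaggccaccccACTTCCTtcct

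The rises were fewer and smaller, and among named genes the 12 largest were between 1.28-fold and 1.76-fold. A probe with no gene name had the highest difference of all, 0.83. Capn6, a calpain family member thought to lack protease activity, lay between -0.07 and 0.99 (median 0.37) at 1500 mg/kg and between -1.28 and 0.14 (median -0.33) at 150 mg/kg, a difference of 0.82 ± 0.23 (adjusted p = 0.0295). Ccr7, the receptor that draws naive lymphocytes and dendritic cells to lymph nodes, lay between 0.07 and 0.76 (median 0.65) at 1500 mg/kg and between -0.26 and -0.04 (median -0.17) at 150 mg/kg, a difference of 0.65 ± 0.18 (adjusted p = 0.0266). For Ccr7 every rat at 1500 mg/kg lay above every rat at 150 mg/kg, whereas the groups overlapped for Capn6. Rarb, a retinoic acid receptor, was the other gene with no overlap: it lay between 0.02 and 0.94 (median 0.26) in 6 rats at 1500 mg/kg and between -0.50 and -0.03 (median -0.23) in the 4 rats with a value at 150 mg/kg, a difference of 0.62 ± 0.18 (adjusted p = 0.0392). Col5a3, a chain of type V collagen, differed by 0.72 ± 0.22 (adjusted p = 0.0476), with rats between 0.12 and 0.65 (median 0.31) at 1500 mg/kg and between -2.22 and 0.44 (median -0.13) at 150 mg/kg. Its lowest value belonged to rat 0246 and stood far from the other 5 at 150 mg/kg; without that rat the difference was 0.36 and did not pass (adjusted p = 0.255). On the arrays with the rat in Cy5 the Col5a3 difference was -0.45, the opposite sign.

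The remaining 8 of the 12 rises had differences from 0.35 to 0.63. Cenpf and Cenpu, proteins of the kinetochore, rose by 0.35 ± 0.10 and 0.44 ± 0.11 (adjusted p = 0.0283 and 0.0159). Ppef2, a phosphatase with calcium-binding EF hands, rose by 0.63 ± 0.18 (adjusted p = 0.0393), and Col4a3, a basement membrane collagen chain, by 0.54 ± 0.15 (adjusted p = 0.0325). Hgd, which degrades homogentisate in tyrosine breakdown, rose by 0.46 ± 0.13, Itgb6, an integrin subunit of epithelia, by 0.39 ± 0.12, Stx3, a vesicle fusion syntaxin, by 0.39 ± 0.10, and Fam110b by 0.36 ± 0.10, with adjusted p of 0.0282, 0.0499, 0.0173 and 0.0264. Several of these genes are known from epithelia, eye or matrix rather than from blood cells, and the 2 Itgb6 probes gave 0.21 and 0.84. Without rat 0460 the 12 differences ranged from 0.32 to 0.80, and none passed (adjusted p = 0.0979 to 0.179). Group means of the 12 genes lay between -0.10 and 0.16 at 0 mg/kg and between -0.38 and -0.03 at 150 mg/kg. They lay between 0.22 and 0.60 at 1500 mg/kg and between -0.01 and 0.49 at 2000 mg/kg. The lowest means at 2000 mg/kg were those of Cenpu and Capn6, -0.01 and 0.02, against 0.29 and 0.46 at 1500 mg/kg.

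**Figure D3:**
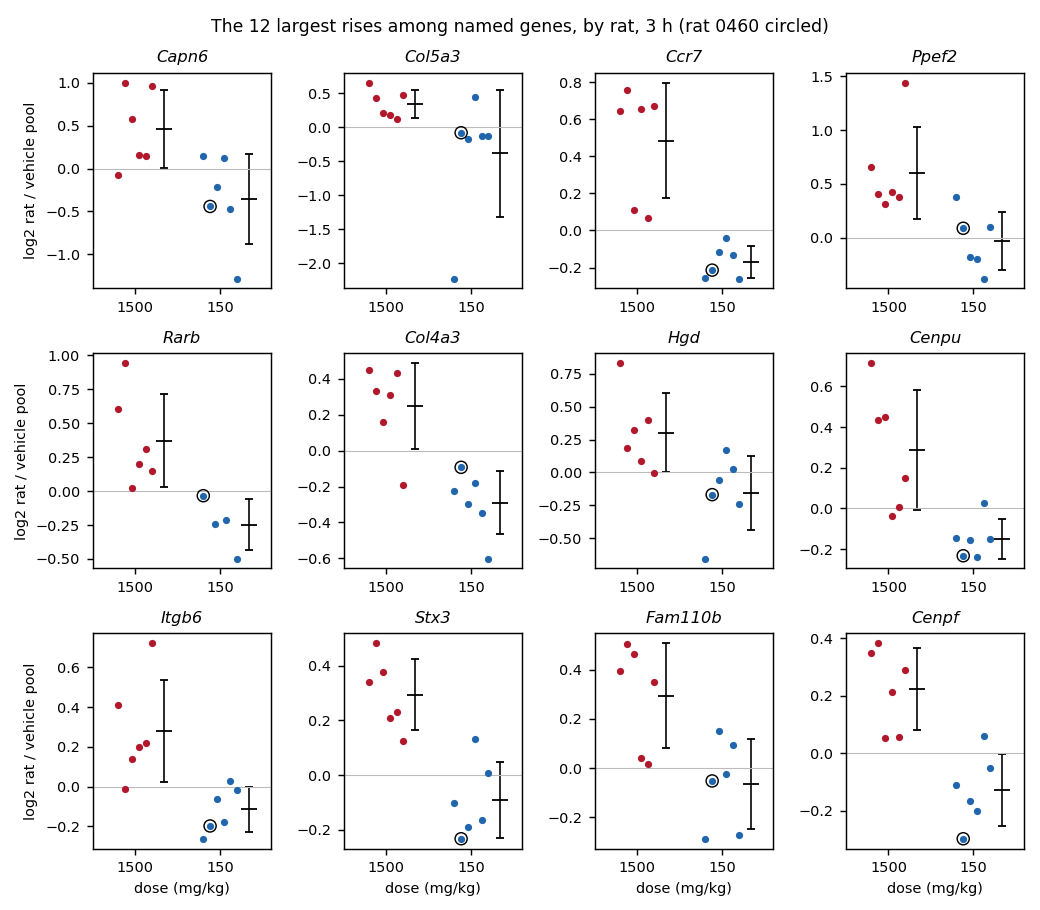
Each panel is 1 of the 12 named genes with the largest rises, with the log2 ratio of each rat over the vehicle pool on the y axis and dose on the x axis; points are the rats of a dose with a value, bars the mean and SD, and the circle marks rat 0460. All 6 rats at 1500 mg/kg lie above the mean at 150 mg/kg in each of the 12 panels, which picking genes on this difference favours. The groups are separate for Ccr7 and Rarb, as in 0.225% of all features.

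Of the 8 marker lists, that of B cells had the lowest median difference. Of 8 tested, 5 fell and none rose (median difference -0.85, against 0.02 over all features), and the mean over the list lay between -0.87 and -0.53 in the rats at 1500 mg/kg and between -0.28 and 0.38 at 150 mg/kg, with no overlap. Besides Spib, these were Blnk, the adaptor of the B cell receptor (-1.22 ± 0.28, adjusted p = 0.0119), Jchain, the joining chain of secreted IgM and IgA (-1.08 ± 0.32, adjusted p = 0.0482), Ms4a1, which encodes CD20, and Cd79b, a receptor signalling chain (-0.70 ± 0.19, adjusted p = 0.0257). Ms4a1 lay between -1.08 and -0.50 (median -0.73) at 1500 mg/kg and between -0.10 and 0.42 (median 0.35) at 150 mg/kg. Its difference of -1.002 ± 0.15 (adjusted p = 0.000108) was -0.98 without rat 0460 (adjusted p = 0.000732), but its 2 probes gave -1.67 and -0.34. Cd37, Fcer2 and Cd74 had differences between -0.02 and 0.02 and did not pass. Calls made up 62.5% of this list, against 3.28% of all features. Without rat 0460, 1 of the 8 passed, and the median was -0.79.

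Among 13 T cell markers 4 fell and 1, Ccr7, rose. The falls were those of the kinase Lck (-1.13 ± 0.31), the surface inhibitor Cd5 (-1.03 ± 0.31), the adaptor Lat (-0.96 ± 0.28) and the receptor chain Cd3g (-0.76 ± 0.19), with adjusted p of 0.0295, 0.0476, 0.0398 and 0.0152. In each of these 4, and in Cd6 (-1.03 ± 0.32, adjusted p = 0.0529), all rats at 1500 mg/kg lay below all at 150 mg/kg, as in 2.15% of all features. Lck lay between -1.45 and -0.71 (median -1.17) at 1500 mg/kg and between -0.55 and 0.94 (median -0.25) at 150 mg/kg. Of the 13 differences 11 were negative, and 38.5% passed, against 3.28% of all features. Among the 8 markers that did not pass, Cd6, Zap70 (-0.59) and Cd2 (-0.50) had the lowest values, Il7r differed by -0.16, and Cd3d, Cd3e, Cd8a and Cd8b by values between -0.13 and 0.05. The list's mean lay between -0.62 and -0.31 at 1500 mg/kg and between -0.28 and 0.48 at 150 mg/kg, and its median difference of -0.50 was -0.19 without rat 0460, where none of the 13 passed. The number past was 0 without rat 1286 of the 1500 mg/kg group, and 1 without rat 4258 of the same group or rat 0893 of the 150 mg/kg group.

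Myeloid markers were mixed. Against 3.28% of all features, calls made up 33.3% of the monocyte and macrophage list and 16.7% of the neutrophil list. Of 15 monocyte and macrophage markers 5 fell, the named ones being Fn1, Lyz2, Ifi30 and Lgals3 (galectin 3, -0.40 ± 0.11, adjusted p = 0.0245), with a list median of -0.36. The fifth was Tyrobp, an adaptor of activating receptors (-0.36 ± 0.11, adjusted p = 0.0438). The mean of the list lay between -0.68 and -0.30 at 1500 mg/kg and between -0.30 and 0.21 at 150 mg/kg. Cd14, Cd68, Csf1r and Cx3cr1 did not pass, with differences between -0.06 and 0.12. Without rat 0460, 2 of the 15 passed, and the median was -0.30. Of 18 neutrophil markers 3 fell: Fcnb, the complement C5a receptor C5ar1 (-0.90 ± 0.26, adjusted p = 0.0349) and the oxidase subunit Cyba (-0.78 ± 0.19, adjusted p = 0.0138). Without rat 0460 Fcnb alone of the 18 passed. The median of that list was -0.07, and S100a8, S100a9, Mmp8, Mmp9 and Lcn2 did not pass, with differences between -0.23 and 0.19. The highest difference of the list, 1.07 for the decoy interleukin 1 receptor Il1r2, missed the threshold (adjusted p = 0.0921), although all 6 rats at 1500 mg/kg, between 0.63 and 1.74 (median 0.73), lay above all 6 at 150 mg/kg, between -0.68 and 0.59 (median -0.19).

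Markers of other cells gave no call. At 3.28% over all features, lists of 9 to 25 genes may hold none, so the counts of 0 below say nothing particular about them. None of 14 natural killer markers passed (median 0.03), and the 2 with the smallest p, Gzmk and Cst7, differed by 0.45 and 0.35. The Cst7 value rested on rat 5027 of the 1500 mg/kg group and was 0.043 without it. None of 9 platelet markers passed (median 0.10, with Selp at 0.37 and Vwf at 0.11), and none of 21 erythroid markers (median 0.10, with Ahsp at 0.29 and Car2 at 0.15). The platelet mean lay between -0.14 and 0.26 at 1500 mg/kg and between -0.12 and 0.10 at 150 mg/kg, and the erythroid mean between -0.02 and 0.14 at 1500 mg/kg and between -0.04 and 0.07 at 150 mg/kg. Of 25 liver transcripts that injured hepatocytes might leave in blood, none passed (median 0.07), and the 2 with the smallest p, Pck1 and Hpx, differed by 0.43 and 0.30. The 4 Vwf probes did not share a sign.

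**Figure D4:**
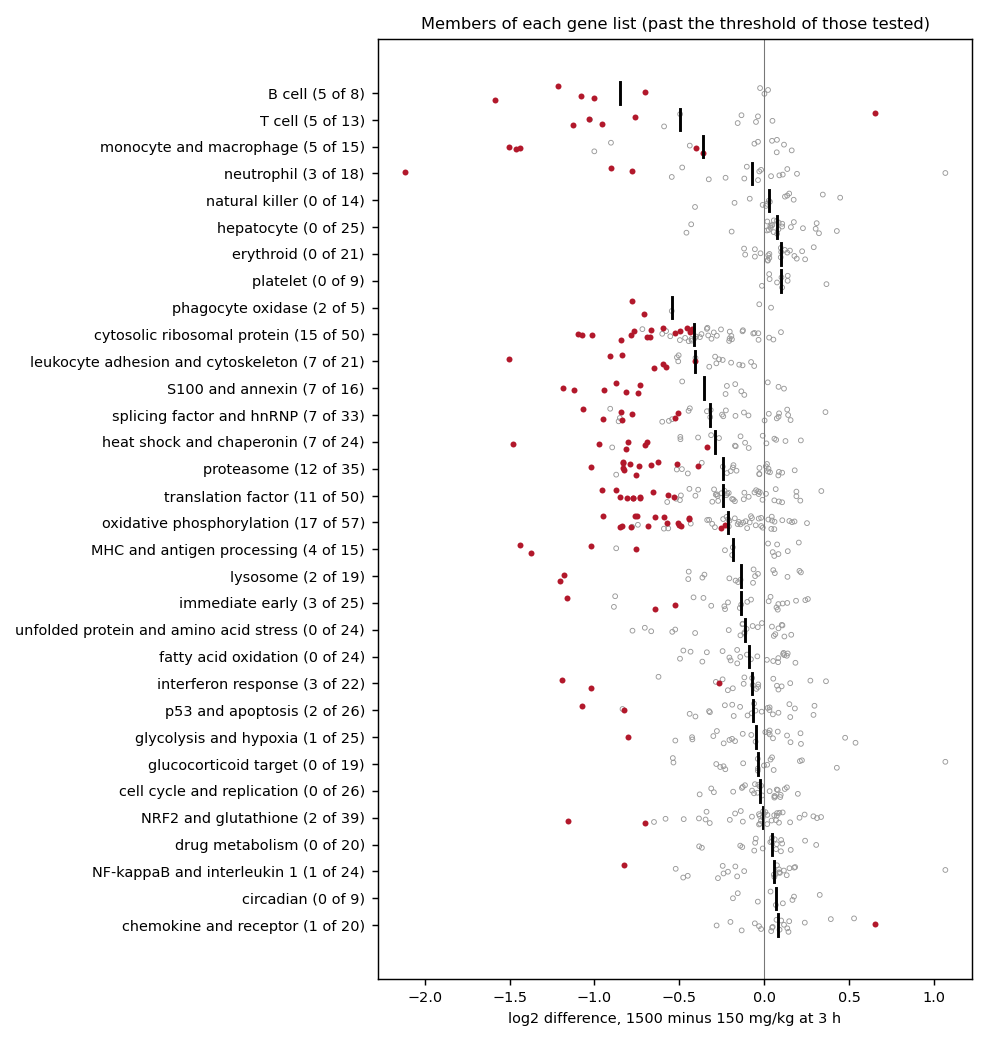
Each row is a gene list, cell type markers first, with the log2 difference of 1500 minus 150 mg/kg at 3 h of every tested member on the x axis; filled points passed the threshold, open points did not, and black bars are list medians. B cell markers have the lowest median (-0.85), and no member of the natural killer, platelet, erythroid or hepatocyte lists is filled. With 3.28% of all features called, lists of that size may hold no filled point.

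Genes of antigen presentation moved unevenly. Of 15 tested, 4 fell (median -0.18): Ifi30, RT1-Da, the immunoproteasome subunit Psmb8 (-1.02 ± 0.29, adjusted p = 0.0318) and the proteasome activator Psme2 (-0.76 ± 0.19, adjusted p = 0.0173). The falls were 26.7% of the list, against 2.99% of all features. All 4 separated the groups, as did 197 of the 439 called falls and 2.15% of all features. Cd74, B2m, Tap1, RT1-Ba and RT1-Bb did not pass, with differences between -0.23 and 0.20. Without rat 0460, 1 of the 15 passed. Among 22 interferon response genes 3 fell (median -0.07): Psmb8, Ifi27l2b (-1.19 ± 0.25, adjusted p = 0.00679) and, by a small amount, Ifitm2 (-0.27 ± 0.08, adjusted p = 0.0463). The 3 falls were 13.6% of that list. The antiviral genes Ifit1, Ifit3, Oas1a and Irf7 did not pass, with differences between -0.03 and 0.36, and without rat 0460 none of the 22 passed. Probes of such gene families may pick up related transcripts.

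Genes for leukocyte shape and movement leaned downward. All 21 tested genes of leukocyte adhesion and cytoskeleton had a negative difference (median -0.40, against 0.02 over all features). Of them 7 fell (33.3%, against 2.99% of all features). Beside Coro1a the named ones were Arpc5 (-0.91 ± 0.20) and Arpc1b (-0.84 ± 0.22), subunits of the Arp2/3 complex that branches actin filaments, and Was (-0.65 ± 0.17), which activates it, with adjusted p of 0.00869, 0.0215 and 0.0259. Of 16 S100, annexin and related genes, 7 fell (median -0.36), among them Crip1 (-1.19 ± 0.28, adjusted p = 0.0132), the annexin A2 partner S100a10 (-1.12 ± 0.23, adjusted p = 0.0055), Anxa2 itself (-0.87 ± 0.25, adjusted p = 0.0339) and the membrane repair protein Myof (-0.94 ± 0.25, adjusted p = 0.0239). Of the S100 and annexin list 43.8% fell, against 2.99% of all features. Without rat 0460 none of the 21 and 1 of the 16 passed, with medians of -0.30 and -0.33. The 1 was S100a6, a calcium-binding protein singled out after its values were seen because it had the smallest adjusted p of all features. S100a6 lay between -0.86 and -0.32 (median -0.60) at 1500 mg/kg and between -0.15 and 0.35 (median 0.16) at 150 mg/kg, a difference of -0.75 ± 0.10 (adjusted p = 2.82e-06), and of -0.71 without rat 0460 (adjusted p = 4.92e-05).

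The 5 phagocyte and signalling lists held between 1 and 3 calls each. Of 5 phagocyte oxidase genes, which make superoxide against microbes, 2 fell, Cyba and the GTPase Rac2 (-0.71 ± 0.17, adjusted p = 0.014), while the catalytic subunit Cybb differed by -0.03. Of 19 lysosomal genes 2 fell, the acid lipase Lipa (-1.20 ± 0.31, adjusted p = 0.0195) and cathepsin Z, Ctsz (-1.18 ± 0.22, adjusted p = 0.00236). Ctsz was -1.005 without rat 0460 (adjusted p = 0.0363), and Lipa -1.03 (adjusted p = 0.127). Among 25 immediate early genes 3 fell: Dusp6, the phosphatase of ERK (-1.16 ± 0.27, adjusted p = 0.0118), Rgs2, a G protein regulator (-0.64 ± 0.18, adjusted p = 0.0307), and Klf4 (-0.53 ± 0.14, adjusted p = 0.0272). Fos, Jun, Junb and Egr1 did not pass, with differences between 0.08 and 0.26. The falls were 40% of the 5 oxidase, 10.5% of the lysosomal and 12% of the immediate early genes, against 2.99% of all features. Of 24 genes of the NF-kappaB and interleukin 1 system 1 fell, the inflammatory caspase Casp1 (-0.83 ± 0.19, adjusted p = 0.0104), and of 20 chemokine and receptor genes 1 rose, Ccr7. These shares of 4.17% and 5% are near the 3.28% called over all features, and are no result about either list. Without rat 0460 none of the immediate early, NF-kappaB, chemokine or oxidase genes passed.

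Genes of basic cell function supplied many of the falls, beginning with the ribosome, whose proteins make up the translation machinery. Of 50 cytosolic ribosomal protein genes 47 had a negative difference (median -0.42, against 0.02 over all features). The falls numbered 15 (30%, against 2.99% of all features). The largest were Rpl5 (-1.10 ± 0.28), Rpl8 (-1.07 ± 0.27), Rpl6 (-1.01 ± 0.25) and Rps6 (-0.84 ± 0.20), with adjusted p between 0.0138 and 0.0195. Rpl5 lay between -1.40 and -0.61 (median -1.13) at 1500 mg/kg and between -0.47 and 0.99 (median -0.08) at 150 mg/kg. None of these 4 genes, picked for their size, had overlapping groups. All rats at 1500 mg/kg lay below all at 150 mg/kg in 12 of the 50, and in 2.15% of all features. The mean of the list lay between -0.46 and -0.18 at 1500 mg/kg and between -0.15 and 0.49 at 150 mg/kg, with rat 0460 the highest. Without that rat no member passed, and the median was -0.33. Ribosomal protein genes have many processed copies in the genome, so a probe may read more than its gene.

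Of 50 translation factors 11 fell (median -0.24), led by the elongation factor subunits Eef1b2 (-0.96 ± 0.24) and Eef1g (-0.88 ± 0.25) and the initiation factors Eif3d (-0.85 ± 0.26) and Eif4a2 (-0.81 ± 0.24), with adjusted p between 0.0158 and 0.0499. Of 57 oxidative phosphorylation genes 17 fell (median -0.21). The largest were Atp5f1c, the gamma subunit of ATP synthase (-0.95 ± 0.22), Sdhb (-0.85 ± 0.17) and Sdhd (-0.78 ± 0.21), subunits of complex II, and Ndufs8 of complex I (-0.84 ± 0.21), with adjusted p between 0.00547 and 0.0283. Sdhb lay between -0.94 and -0.44 (median -0.75) at 1500 mg/kg and between -0.32 and 0.65 (median 0.00) at 150 mg/kg, without overlap. The oxidative phosphorylation mean lay between -0.25 and -0.14 at 1500 mg/kg and between -0.11 and 0.29 at 150 mg/kg, again with rat 0460 the highest. The falls were 22% of the translation factors and 29.8% of the oxidative phosphorylation genes, against 2.99% of all features.

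Splicing, protein breakdown and folding followed the same direction. Of 33 splicing factors and hnRNP proteins 7 fell (median -0.32), with Hnrnpa2b1 (-1.07 ± 0.26), Snrpc (-0.95 ± 0.20), Hnrnpm (-0.84 ± 0.22) and Snrpf (-0.83 ± 0.22) the largest (adjusted p = 0.00806 to 0.0217). Of 35 proteasome genes 12 fell (median -0.24), among them Psmb8, the ATPase Psmc2 (-0.83 ± 0.25) and the core subunits Psma2 (-0.83 ± 0.20) and Psma4 (-0.83 ± 0.21), with adjusted p between 0.0158 and 0.0423. Of 24 heat shock and chaperonin genes 7 fell (median -0.29): beside Hspa4 the named ones were the constitutive chaperones Hspa8 (-0.97 ± 0.28) and Hsp90ab1 (-0.80 ± 0.22) and the chaperonin subunit Tcp1 (-0.81 ± 0.24), while the stress-induced Hspa1a differed by 0.01 and did not pass. The adjusted p of the 4 named chaperones lay between 0.0104 and 0.0479. Vehicle means of Hspa8, Hsp90ab1 and Tcp1 at 3 h were -0.56, -0.66 and 0.24, against -0.11, -0.32 and -0.02 at 150 mg/kg. The falls were 21.2% of the splicing, 34.3% of the proteasome and 29.2% of the heat shock list, against 2.99% of all features. Without rat 0460 no translation factor, oxidative phosphorylation, splicing, proteasome or heat shock gene passed, and the medians of these lists were between -0.25 and -0.17. Leaving out rat 0893, 1286 or 4258 instead left between 1 and 6 genes past in each of these lists and in the ribosomal list.

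The next lists hold genes of the drug's own metabolism and of its known stress pathways. Of 39 NRF2 and glutathione genes 2 fell (5.13%, against 3.28% of all features called, with a median of -0.01): the peroxiredoxin Prdx5 and the pentose phosphate enzyme Tkt (-0.70 ± 0.18, adjusted p = 0.0217). Prdx5 lay between -1.45 and -0.47 (median -1.15) at 1500 mg/kg and between -0.34 and 0.85 (median -0.20) at 150 mg/kg, with no overlap. Its difference of -1.16 ± 0.22 (adjusted p = 0.00336) was -1.0004 without rat 0460 (adjusted p = 0.0427), and that of Tkt was -0.55 (adjusted p = 0.18). The NRF2 targets Hmox1, Nqo1, Gclm and Srxn1 did not pass, with differences between -0.35 and 0.09. None of 20 drug metabolism genes passed (median 0.05, with Cyp4f4 at 0.31 and Cyp1a2 at 0.24), and none of 24 genes of the unfolded protein and amino acid stress responses (median -0.11, with Herpud1 at -0.78 and Dnajb11 at -0.70). Cyp2e1, the main enzyme that oxidises acetaminophen, differed by 0.04.

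Of 26 p53 and apoptosis genes 2 fell (7.69%, median -0.07), Casp1 and the survival protein Bcl2a1 (-1.07 ± 0.23, adjusted p = 0.00835); without rat 0460 neither passed (adjusted p = 0.104 and 0.0823). Of 25 glycolysis and hypoxia genes 1 fell (4%, near the 3.28% of all features), Ldhb (-0.80 ± 0.24, adjusted p = 0.0499), whose 2 probes gave -0.42 and -1.18 and which did not pass without rat 0460 (adjusted p = 0.257). None of 24 fatty acid oxidation genes passed (median -0.09, with Acadm at -0.43 and Ppara at 0.18) and none of 26 cell cycle genes (median -0.02, with Pcna at -0.38 and Mki67 at 0.20). The same held for 19 glucocorticoid targets (median -0.04, with Il1r2 at 1.07 and Mt1 at -0.28) and 9 circadian genes (median 0.07, with Dbp at -0.18 and Clock at 0.33). At 3.28% over all features, a list of this size may hold no call, so these counts of 0 say nothing particular about the lists.

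At 6 h the same doses, in other rats, differed in 2 features by the test, S100a10 (-1.14, adjusted p = 0.0329) and Padi2, a peptidylarginine deiminase (-0.68, adjusted p = 0.0329), and 1314 features had an unadjusted p under 0.05. Padi2 was named after its values were seen. Of the 439 falls at 3 h, 430 were also negative at 6 h (97.9%, against 47.6% of all features), with a median of -0.42, and of the 42 rises 30 were positive, against 7686 of all 14678 features, with a median of 0.06. The 12 largest falls ranged from -1.08 to -0.46 at 6 h, and none of them passed there. The change of the difference itself, 3 h minus 6 h, passed in 0 of 14678 features (0%) with limma, where 485 had an unadjusted p under 0.05 and the lowest adjusted p rounded to 1.0. It also passed in none under the alternative settings tried.

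At 24 h the pattern was another one. There 152 features differed between 1500 and 150 mg/kg, 52 lower and 100 higher, and of the 439 falls at 3 h, 320 were negative (72.9%, against 52.1% of all features), with a median of -0.14. The difference at 3 h minus that at 24 h passed in 161 features (1.1%), 134 of them more negative at 3 h and 27 more positive. Of the 439 falls 60 were among the 161, and of the 42 rises 2. The falls and rises were picked on the 3 h difference, which enters the change, so this overlap is partly built in. Without rat 0460 the count of 161 became 94, and without rat 0893 it became 96.

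The 3 lowest changes of the dose difference, 3 h minus 24 h, were those of myeloid genes. Serpinb1a, an inhibitor of neutrophil proteases, differed by -0.33 at 3 h and by 2.68 at 24 h, and S100a9, a subunit of calprotectin, by -0.12 at 3 h and by 2.59 at 24 h. Anxa1, an annexin that restrains neutrophil recruitment, differed by -0.48 at 3 h and by 1.68 at 24 h. Their changes, 3 h minus 24 h, were -3.00 ± 0.59, -2.71 ± 0.60 and -2.17 ± 0.38 (adjusted p = 0.00176, 0.00599 and 0.000406), and none of the 3 was past the threshold at 3 h. In the opposite direction, the nuclear import factor Kpna1, the fatty acid receptor Cd36 and the Ran-binding protein Ranbp10 differed by 0.08, 0.11 and 0.26 at 3 h and by -0.91, -0.94 and -0.74 at 24 h. Their changes were 0.99 ± 0.21, 1.05 ± 0.21 and 0.996 ± 0.23 (adjusted p = 0.00316, 0.00189 and 0.011).

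Several genes that fell at 3 h had a difference near or above 0 at 24 h, with a change that passed the test. As they were picked on the 3 h difference, which enters the change, the change is favoured by that choice. For Prdx5 the difference was -1.16 at 3 h and 0.92 at 24 h, for C5ar1 -0.90 at 3 h and 1.19 at 24 h, and for Bcl2a1 -1.07 at 3 h and 0.62 at 24 h. Their changes had adjusted p of 2.63e-05, 0.000406 and 0.00152. Fcnb, the largest fall at 3 h, differed by -0.08 at 24 h (adjusted p of the change = 0.0155), Fn1 by 0.20 (0.00752), Ctsz by 0.22 (0.00552) and Ms4a1 by -0.09 (0.0149). The change of Fcnb did not pass without rat 0460 (adjusted p = 0.0566) or without rat 0893 (adjusted p = 0.0503). The lymphocyte genes Spib, Lck, Cd5 and Lat differed by -0.72, -0.74, -0.67 and -0.60 at 24 h, where none passed (adjusted p = 0.453 to 0.61). Their changes between 3 h and 24 h did not pass either (adjusted p = 0.659 to 0.901), which does not show that the difference persisted, and they were not tested against the other genes. The T cell list had medians of -0.50, -0.45 and -0.53 at 3, 6 and 24 h, the neutrophil list -0.07, 0.05 and 0.42, and the ribosomal list -0.42, -0.30 and -0.01.

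The calls at 3 h depended on single rats. Over the 439 called falls the median log2 ratio of a rat lay between -0.92 and -0.46 at 1500 mg/kg and between -0.32 and 0.53 at 150 mg/kg, where 0.53 was rat 0460, 0.22 rat 0893, and the other 4 lay between -0.32 and -0.03. These features were called on the same values, so the medians describe them and test nothing. The vehicle rats lay between -0.25 and 0.18, and the rats at 2000 mg/kg between -1.13 and -0.64. The count of called features was 12 without rat 0460, 102 without rat 0893, 161 without rat 1286, 175 without rat 4258, 261 without rat 5027 and 318 without rat 6622, and 777 without rat 2222, which was the lowest of the 150 mg/kg group. Without any 1 of these rats all 481 features kept their sign, which says little as the remaining rats had also served to call them.

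**Figure D5:**
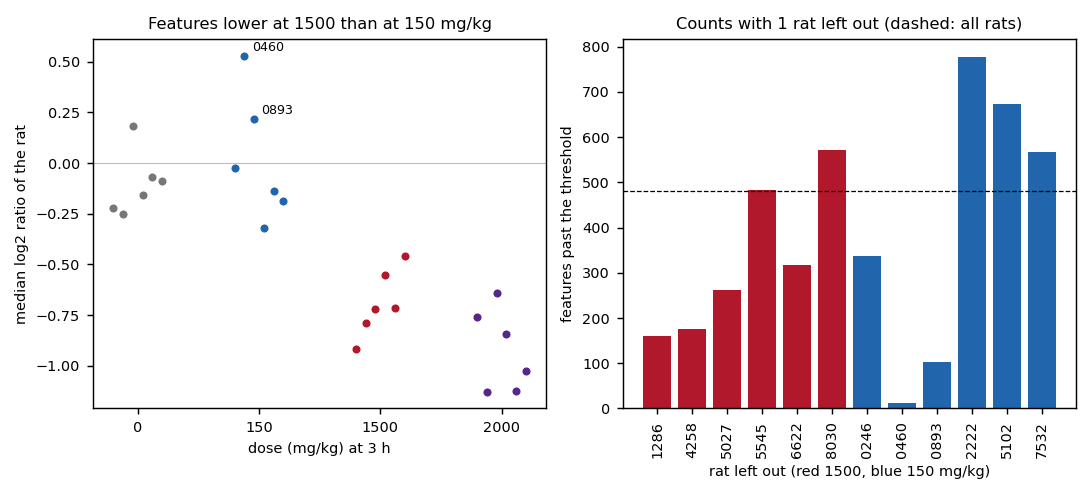
On the left, each point is a rat at 3 h, with its median log2 ratio over the 439 features that were lower at 1500 than at 150 mg/kg on the y axis and its dose on the x axis. On the right, bars give the number of features past the threshold with the named rat left out, red for 1500 and blue for 150 mg/kg; the dashed line is the count of 481 with all rats, and the bar of rat 0460 stands at 12.

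The 12 features that passed without rat 0460 also passed without each other rat of the 2 groups in turn. They were Fcnb, Ifi30, Fn1, Ctsz, Prdx5, Ms4a1, S100a6, Trappc6b, Pacsin2, Cd83 and 2 probes with no gene name, and 11 of the 12 were lower at 1500 mg/kg. Trappc6b, a subunit of a vesicle tethering complex, differed by -1.02 ± 0.20 (adjusted p = 0.00399), and Pacsin2, which shapes membranes in endocytosis, by -0.99 ± 0.19 (adjusted p = 0.00399). Cd83, a marker of activated dendritic and B cells, lay between -0.67 and -0.20 (median -0.57) at 1500 mg/kg and between -0.09 and 0.21 (median -0.02) at 150 mg/kg, a difference of -0.52 ± 0.10 (adjusted p = 0.00399). Without rat 0460 these 3 were -0.92, -0.89 and -0.48 (adjusted p = 0.0429, 0.0427 and 0.0427). Trappc6b, Pacsin2, Cd83 and S100a6 were named after their values were seen.

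With the share of a rat's arrays that lack the 500 features as a covariate, 346 features were called, all of them among the 481. Both arrays were of the fuller kind in 4 rats at 1500 mg/kg and 5 at 150 mg/kg. Among these rats 34 features were called, 31 of them among the 481. All 481 kept their sign, but these rats had also served to call them. Their median size was 0.695, against 0.703 with all rats.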

How the data were processed

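The deposited values are log10 ratios that the authors had already processed; how they were scanned, normalized and centred is not given in the sources used, and the base and direction (Cy5 over Cy3) are likely, not stated. Array medians lay between -0.00754 and 0.00873. Values were multiplied to the log2 scale and turned where the rat was in Cy3, and a rat's value is the mean of 2 arrays, both needed. Exact zeros (10.9% of values, 2.39 to 18.4% per array) were treated as missing. Of 22075 deposited features, 500 lack values on 91 arrays and were left out. The 12750 probes with 1 gene symbol were averaged per gene (2204 tested genes had more than 1 probe), and 8820 without a symbol and 5 with several were kept unnamed; 12720 probes matched a rat gene table. Features needed a value in 4 of 6 rats in each of the 12 groups; no value was imputed, and 0.687% of rat values were missing.

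Doses came from a deposited key; its times matched the labels for 72 of 72 rats, and 19 rat numbers had lost zeros at their ends. A single limma model (version 3.58.1, R 4.3.3) held 12 group means over 72 rats. Its prior degrees of freedom were 2.37, its tests were two-sided, and p-values were adjusted by Benjamini-Hochberg over 14678 features. The spread between rats sets the p-values, and the number of rats, not of arrays, limits the precision. The script was tested on simulated data. Other tools were matplotlib 3.10.9, pandas 2.3.3, numpy 2.4.6, Python 3.11.15 and statmod 1.5.0.

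The comparison and the 32 gene lists were chosen with earlier results of these data known, so the lists are described by counts and medians and not tested. Named are the 12 largest falls and 12 largest rises past the threshold, up to 4 members per list past it in each direction (where none passed, the 2 with the smallest p), and the 3 highest and 3 lowest changes between times; Cd79b, Tyrobp and list members given as showing no call were named after their values were seen. Alternatives covered the rats and groups in the fit, array kind, dye orientation, weights, centring, scaling, zeros, filters, probes, variance model and threshold.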

Additional observations from a re-analysis of the deposited data

Results flagged for a closer look

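In 208 groups of named genes at 1500 or 150 mg/kg, 9 had 1 rat far from the others by Dixon's criterion, where chance flags about 1 in 20. That number is no more than chance would give, so the flags are listed as values and are no result about these rats. Rat 1286 at 1500 mg/kg was the lowest for Blnk (-1.66), Dbp (-0.29) and Ifitm2 (-0.50), and rat 8030 at 1500 mg/kg the highest for Ctsz (-0.88), Ndufs8 (-0.26) and Ppef2 (1.44). Rat 5027 at 1500 mg/kg was the highest for Cst7, with 1.82, where the next rat had 0.21. At 150 mg/kg, rat 0246 was the lowest for Col5a3 with -2.22, where the next rat had -0.17, and rat 5102 the highest for Cenpu with 0.028. Rat 0460 was not among the 9.

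For 19 named genes the difference of 1500 minus 150 mg/kg itself differed between 3 h and 24 h by limma's test of the change. Genes named for their 3 h difference, or for the change itself, are favoured in that test by how they were picked. The change, 3 h minus 24 h, was more negative at 3 h for 16 genes: Serpinb1a (-3.00), S100a9 (-2.71), Anxa1 (-2.17), C5ar1 (-2.10), Prdx5 (-2.08), Fcnb (-2.04), Fn1 (-1.70), Bcl2a1 (-1.70), Ctsz (-1.40), Arpc5 (-1.05), Cyba (-0.97), Casp1 (-0.96), Lgals3 (-0.94), Rgs2 (-0.93), Ms4a1 (-0.91) and Ifitm2 (-0.56). It was more positive for Cd36 (1.05), Ranbp10 (0.996) and Kpna1 (0.99). Without rat 0460 of the 150 mg/kg group 14 of the 19 passed; the 5 that did not were Fcnb (adjusted p = 0.0566), Arpc5 (0.14), Casp1 (0.162), Cyba (0.153) and Rgs2 (0.136). Without rat 0893 the same number passed, and without rat 1286 or rat 4258 of the 1500 mg/kg group 15 passed.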

How the results depend on the processing

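The count of 481 features moved with the settings. The 481 were called on these same rats, so the sign they kept was nearly fixed in advance and is no support. It was 766 with only the rats at 3 h in the fit, 264 with only the 12 rats compared, 34 with only rats whose arrays are of the fuller kind, 1109 with array weights, 963 with single arrays and the rat as a random block, 299 with arrays scaled to 1 spread, and 212 with only the arrays with the rat in Cy5 (211 lower and 1 higher). With only the arrays with the rat in Cy3 it was 599, of which 197 were higher, against 42 of 481. Leaving out 1 rat gave 12 to 777 features for the 3 h difference, 94 to 212 for its change against 24 h (161 with all rats) and 0 for its change against 6 h; leaving out rats 0460 and 1286 together, added after seeing the data, gave 4 and 74. The causes of these shifts were not tested. All called features kept their sign under each of these settings, except 4 of 481 with only Cy5 arrays. Among named genes Col5a3 reversed with only Cy5 arrays (-0.45). Over all settings, the added one included, 606 of 2796 values of named genes lost the threshold and 19 gained it. The setting without rats 0460 and 1286 held 76 of the 606. Of the list medians over lists and settings, 5 moved by more than the spread between rats and 731 did not. A fit of rats with both arrays lacking the 500 features was not run, as 1 rat at 1500 and none at 150 mg/kg had them. No paired analysis was possible because the groups share no replicate numbers.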
